A study of Mus musculus with 27 samples.

Results

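The comparison described here set polyadenylated RNA bound to chromatin in siPTBP1 cells against the same fraction of siGFP cells. Its members were the 18312 of 53379 gene IDs with at least 1 TPM (a level scaled for transcript length and for the library total) in at least 3 of the 6 chromatin libraries, with symbols starting in Mir, Snord or Snora left out. They are 34.3% of the table, and the 6 libraries are 3 of siPTBP1 and 3 of siGFP among 27 in all. The cells were E14, a mouse embryonic stem cell line grown on gelatin with LIF, a cytokine that holds the cells undifferentiated. SiPTBP1 cells received siRNA against Ptbp1, and siGFP cells received siRNA against eGFP. Both were transfected a first time and again 24 h later, and were collected 48 h after the first transfection. The series also holds a double knockdown with siRNA against Ptbp1 and Ptbp2, and the cytoplasm (CY) and nucleoplasm (NP) of every treatment, each with 3 libraries. The replicates are called biological with no further detail, so each p-value covers only the variation among the libraries at hand. The share of cells that took up siRNA was not used here.

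PTBP1, the polypyrimidine tract binding protein, is an RNA-binding protein of the nucleus that recognises stretches rich in U and C and represses the splicing of many exons used in neurons and muscle. It also holds back complete splicing of some neuronal transcripts, which then stay in the nucleus, so that loss of the protein can release them to the cytoplasm. RNA on chromatin includes transcripts still being made, finished transcripts not yet released and RNAs that act there, and the libraries here hold those that were caught by their polyA tail.

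Markers of the fraction and of the cell type were present. Malat1, a noncoding RNA retained in nuclei, had 391.6, 1192 and 854 TPM in siPTBP1 replicates 1 to 3, against 471, 1056 and 707 TPM in siGFP replicates 1 to 3, and averaged 9.79 TPM in siPTBP1 CY and 11.5 TPM in siGFP CY. Pou5f1, which encodes the pluripotency factor OCT4, lay between 211 and 659 TPM in siPTBP1 cells and between 268 and 689 TPM in siGFP cells. The replicate 1 libraries stood apart from the other chromatin libraries. On the first principal component, which took 46.8% of the variance, siPTBP1 replicates 1 to 3 scored -47.0, 51.3 and 22.9 and siGFP replicates 1 to 3 scored -72.4, 36.5 and 8.73. The 10 most abundant genes took 8.44%, 9.25% and 5.98% of the TPM in siPTBP1 libraries and 16.9%, 9.80% and 8.67% in siGFP libraries (exact permutation p = 0.2, two-sided, where 3 against 3 cannot go below 0.1). Mitochondrially encoded mRNA took 1.59%, 1.17% and 1.00% in siPTBP1 libraries and 0.56%, 1.67% and 0.649% in siGFP libraries (exact permutation p = 0.6). Summed markers of trophoblast, among them the keratins Krt8 and Krt18, came to 683, 61.6 and 107 TPM in siPTBP1 libraries and 1240.0, 105 and 184 TPM in siGFP libraries. Replicate 1 was thus the highest of its group in both treatments for those markers, and their part in the results was not tested. Read numbers cannot be had from TPM, and the depth of these libraries is therefore unknown.

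Ptbp1 RNA itself fell. It had 242, 192 and 294 TPM in siPTBP1 replicates 1 to 3, against 659, 349 and 534 TPM in siGFP replicates 1 to 3. Each siPTBP1 library lay under every siGFP library, and the mean level was 47.2% of that in siGFP cells (log2 difference -1.05 ± 0.19 (SE), adjusted p = 0.00382 in limma). The same contrast gave a log2 difference of -2.15 in CY (adjusted p = 7.1e-07) and -1.89 in NP (adjusted p = 7.75e-06). The paralogs did not pass the test on chromatin: Ptbp2 differed by -0.17 (adjusted p = 0.689) and Ptbp3 by -0.21 (adjusted p = 0.701). In bulk RNA, fewer cells with a transcript and less of it per cell cannot be told apart, here and for every gene below.

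Against siGFP, 360 genes were higher and 119 lower in siPTBP1 chromatin, which is 1.97% and 0.65% of the genes tested, 2.62% in all. A gene is called where limma's adjusted p was under 0.05 on log2(TPM + 1), in a fit of all 27 libraries with the replicate number as a block. Replicate pairs moved together: the deviations of same-numbered siPTBP1 and siGFP libraries correlated at 0.533, 0.521 and 0.326. Without the block 55 genes were higher and 26 lower, all of them among the 360 and 119. Of the genes described below, Actc1, Atp6v1g2, Fam120c, Myl3, Itgb1bp2, Napb, Sez6, Cnih3, Galm, Zfp691, AC108401.2, 0610040B10Rik, Gm27003, Capzb, Pde2a, Icosl, Tnfsf13, Gm43040, Trav12d-3 and 1 ID of Rnu3a kept their call without it. Ptbp1 (adjusted p = 0.165), Myl9 (0.125), Arpc5 (0.415), Mov10 (0.0868), Iqgap1 (0.0694) and the other called genes named below did not. In a fit of the 9 chromatin libraries alone, which takes the spread from this fraction only, 184 were higher and 53 lower, and 135 higher (0.737% of genes) and 35 lower (0.191%) passed in both fits. The 6 compared libraries alone, with 2 residual degrees of freedom, gave 15 higher and 8 lower, among them Actc1, Atp6v1g2 and Napb. Without the replicate 1 libraries of every group the counts were 484 and 196, of which 240 and 77 were among those called with them. Leaving out siGFP replicate 3 left 192 higher and 66 lower, siPTBP1 replicate 2 left 214 higher, siPTBP1 replicate 3 left 216 higher, and siGFP replicate 2 left 76 lower. The median log2 difference over all genes was 0.09, with 64.5% of genes above 0. Scaling by median ratios moved that median to -0.01 and the split of calls to 177 higher and 130 lower, and quantile normalization moved the split to 327 and 274, so the excess of higher over lower calls depends on the scaling.

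**Figure D1:**
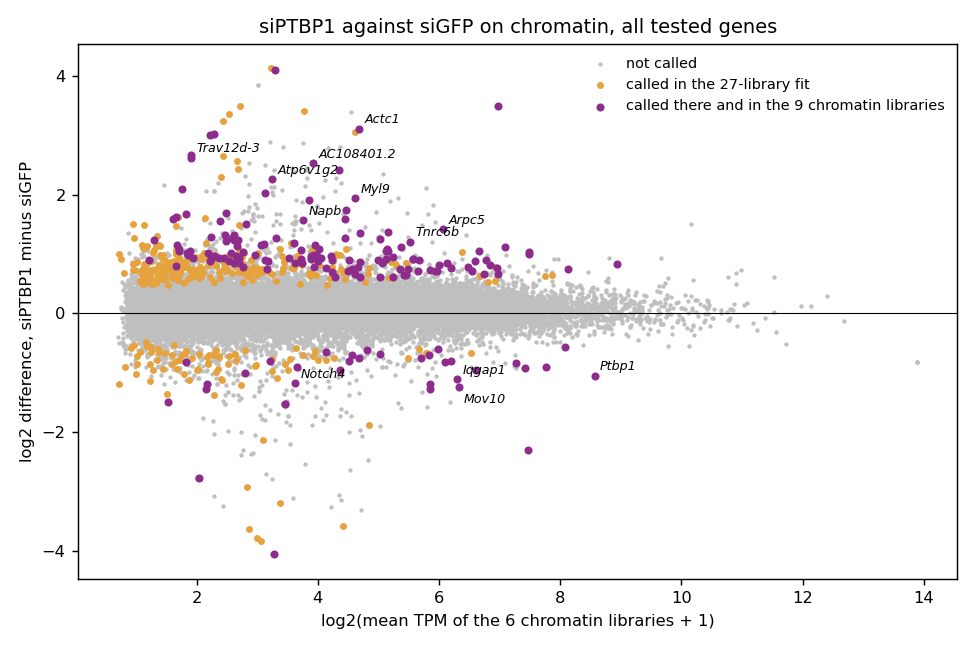
Log2 difference between siPTBP1 and siGFP on chromatin against the mean level of each of the 18312 genes, log2(mean TPM of the 6 libraries + 1). Grey points were not called, orange points were called in the 27-library fit, and purple points also in the fit of the 9 chromatin libraries (135 higher, 35 lower). The orange points gather at low levels, and Actc1 has the highest difference of the labelled genes.

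Genes of the contractile and actin apparatus were among the larger increases. Actc1, the cardiac alpha-actin, had 39.9, 27.8 and 65.8 TPM in siPTBP1 replicates 1 to 3, against 4.28, 1.30 and 9.05 TPM in siGFP replicates 1 to 3. Myl9, a regulatory light chain of myosin in smooth muscle and non-muscle cells, had 47.5, 19.4 and 44.5 TPM in siPTBP1 replicates 1 to 3, against 18.6, 3.62 and 7.79 TPM in siGFP replicates 1 to 3. All siPTBP1 libraries lay above all siGFP libraries for both genes, although the siGFP libraries varied several fold among themselves. Actc1 had a log2 difference of 3.11 ± 0.28 (SE; adjusted p = 8.6e-07 in limma, 0.00862 over the 9 chromatin libraries), and it kept its call in each alternative fit that was run. Myl9 had a log2 difference of 1.94 ± 0.27 (adjusted p = 0.000355, and 0.0182 over the 9 libraries). Myl3, a light chain of cardiac and slow muscle myosin, had 2.49, 4.59 and 4.29 TPM in siPTBP1 cells, against 0.72, 0.66 and 0.22 TPM in siGFP cells, so its siGFP libraries were all below 1 TPM (log2 difference 1.63 ± 0.21 (SE), adjusted p = 9.6e-05). Myl3 met the 1 TPM rule only through its siPTBP1 libraries. Arpc5, a subunit of the Arp2/3 complex that starts branched actin filaments, had 90.2, 95.6 and 101 TPM in siPTBP1 cells, against 23.96, 37.3 and 48.6 TPM in siGFP cells. The Arpc5 groups did not overlap (log2 difference 1.41 ± 0.27 (SE), adjusted p = 0.0042), which also held for 6.03% of all genes in the upward and 1.77% in the downward direction.

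Serum response factor (SRF) drives many of these genes when monomeric actin is depleted, through a short promoter element called the CArG box. Of 16 tested genes in a list of SRF targets of actin and contraction, 4 were higher and 0 lower, beside 1.97% and 0.65% of all genes. The list's median log2 difference was 0.79, against 0.09 over all genes tested. Leaving out the replicate 1 libraries gave 10 higher and 0 lower members and a median of 1.02. Besides Actc1 and Myl9, the higher members were Cnn2, a calponin that binds actin, and Tpm2, a tropomyosin that lines actin filaments. Cnn2 had 147, 69.3 and 94.9 TPM in siPTBP1 cells, against 118, 25.6 and 36.4 TPM in siGFP cells. Its groups overlapped through siGFP replicate 1, and its call (log2 difference 1.03 ± 0.24 (SE), adjusted p = 0.0227) was lost over the 9 libraries (adjusted p = 0.0643) and when single libraries were left out (adjusted p = 0.058 without siPTBP1 replicate 1, 0.0741 without siPTBP1 replicate 2, 0.0628 without siPTBP1 replicate 3, 0.127 without siGFP replicate 2, 0.154 without siGFP replicate 3). Tpm2 had 46.7, 85.9 and 64.1 TPM in siPTBP1 cells, against 33.5, 35.9 and 31.9 TPM in siGFP cells, with no overlap (log2 difference 0.90 ± 0.23 (SE), adjusted p = 0.0365). Its call was lost when 5 of the 6 libraries were left out in turn (adjusted p = 0.163 without siPTBP1 replicate 2, 0.111 without siPTBP1 replicate 3, 0.0692 without siGFP replicate 1, 0.117 without siGFP replicate 2, 0.127 without siGFP replicate 3). Srf itself had 46.5, 22.6 and 28.1 TPM in siPTBP1 cells, against 37.7, 10.96 and 14.2 TPM in siGFP cells, higher in each pair, but did not pass (log2 difference 0.74 ± 0.22 (SE), adjusted p = 0.076). Vinculin (Vcl), which ties actin to adhesion sites, had 167, 119 and 151 TPM in siPTBP1 cells, against 72.8, 63.4 and 83.01 TPM in siGFP cells and stood at the threshold (adjusted p = 0.0508, and 0.0242 over the 9 libraries). The smooth-muscle actin Acta2 had 85.1, 38.7 and 84.8 TPM in siPTBP1 cells, against 72.9, 15.9 and 40.6 TPM in siGFP cells and did not pass (adjusted p = 0.367). The list was drawn up with earlier results of these samples known, so its count is not independent evidence of direction.

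The promoters of the called SRF-list genes show how the element sits before the start. The sequences come from RefSeq (GRCm38.p6), and each spans a RefSeq start of its gene, most of it lying before that start. They run 5′ to 3′ on the gene's strand, with the CArG box in capitals. The Actc1 window lies inside the span of the gene in GENCODE M21, whose outermost start is at 114053548.
Actc1 lies on the minus strand, and its window is chr2:114052826-114053125.
Actc1: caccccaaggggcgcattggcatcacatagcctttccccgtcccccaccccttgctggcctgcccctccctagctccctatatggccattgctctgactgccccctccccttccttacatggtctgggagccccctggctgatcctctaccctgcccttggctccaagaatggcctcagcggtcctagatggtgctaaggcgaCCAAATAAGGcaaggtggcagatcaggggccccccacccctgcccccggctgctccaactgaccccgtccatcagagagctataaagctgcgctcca
Myl9 lies on the plus strand, and its window is chr2:156775214-156775513.
Myl9: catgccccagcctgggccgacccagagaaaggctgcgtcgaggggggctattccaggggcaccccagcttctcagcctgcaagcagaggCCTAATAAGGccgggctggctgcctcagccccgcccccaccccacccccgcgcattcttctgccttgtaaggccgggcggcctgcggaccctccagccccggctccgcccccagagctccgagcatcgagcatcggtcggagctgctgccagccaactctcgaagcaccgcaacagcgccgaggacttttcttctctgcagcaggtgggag
Cnn2 lies on the plus strand, and its window is chr10:79988350-79988649.
Cnn2: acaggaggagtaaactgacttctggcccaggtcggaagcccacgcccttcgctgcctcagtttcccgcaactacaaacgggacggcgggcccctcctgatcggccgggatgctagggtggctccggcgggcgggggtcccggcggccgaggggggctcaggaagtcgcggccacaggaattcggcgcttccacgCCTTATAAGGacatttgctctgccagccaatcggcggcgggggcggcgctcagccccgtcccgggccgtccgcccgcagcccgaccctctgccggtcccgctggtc
Each window held 1 box. The element was searched by its consensus, which reads the same on both strands. The Tpm2 window held 0. A box was found in 7 of 14 tested genes of the list that had a promoter in the table (50.0%), and in 1.63% of 32851 promoters of the table. The list was assembled from genes known to depend on this element, so that share describes the list and not the response.

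Other genes of the same machinery were found among the calls after their values had been seen. Pdlim7, which links actin to kinases in muscle, had 196, 163 and 191 TPM in siPTBP1 cells, against 115, 64.8 and 77.95 TPM in siGFP cells (log2 difference 1.12 ± 0.17 (SE), adjusted p = 0.000973). Capzb, the beta subunit of the protein that caps actin filament ends, had 218, 272 and 225 TPM in siPTBP1 cells, against 130.3, 118 and 108 TPM in siGFP cells (log2 difference 1.00 ± 0.17 (SE), adjusted p = 0.00247). Lpp, an adhesion-site protein, had 22.1, 17.2 and 18.97 TPM in siPTBP1 cells, against 9.66, 8.23 and 10.2 TPM in siGFP cells (log2 difference 0.98 ± 0.22 (SE), adjusted p = 0.0174). Wdr1, which helps cofilin take filaments apart, had 145, 119 and 160.3 TPM in siPTBP1 cells, against 98.6, 57.7 and 74.1 TPM in siGFP cells (log2 difference 0.89 ± 0.21 (SE), adjusted p = 0.0186). Tpm4, another tropomyosin, had 111, 157 and 136 TPM in siPTBP1 cells, against 46.5, 80.3 and 69.5 TPM in siGFP cells (log2 difference 1.05 ± 0.28 (SE), adjusted p = 0.0452). In these 5 genes the groups did not overlap, and each was also called over the 9 chromatin libraries. Pdlim7 and Capzb kept their call in each fit that left out 1 library. Lpp lost it without siPTBP1 replicate 1, siGFP replicate 2 or siGFP replicate 3 (adjusted p up to 0.102), Wdr1 without replicate 2 or 3 of either group (up to 0.128), and Tpm4 without any 1 of the 6 libraries (0.0565 to 0.182).

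Iqgap1 went the other way. This gene, a scaffold at the cell cortex that binds actin, had 48.8, 52.1 and 45.5 TPM in siPTBP1 replicates 1 to 3, against 99.6, 104 and 116 TPM in siGFP replicates 1 to 3, with little spread within either group (log2 difference -1.11 ± 0.18 (SE), adjusted p = 0.00156 in limma). Of 23 tested actin nucleators and crosslinkers 2 were lower, Iqgap1 among them, and 0 higher, beside 0.65% and 1.97% of all genes on chromatin. The list median was 0.00. Filamin A (Flna) had 542, 633 and 903 TPM in siPTBP1 cells, against 1155, 466 and 776 TPM in siGFP cells and did not pass (log2 difference -0.14 ± 0.24 (SE), adjusted p = 0.846). Its direction turned to 0.33 without the replicate 1 libraries. In CY, where the 27-library fit called 1.49% of genes higher and 0.562% lower (2.05% in all), Flna differed by -1.66 (adjusted p = 0.000224) and Iqgap1 by -1.48 (adjusted p = 3.4e-05). Of 16 myosin chains, Myl3 and Myl9 were higher and 0 were lower, with a list median of 0.16.

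**Figure D2:**
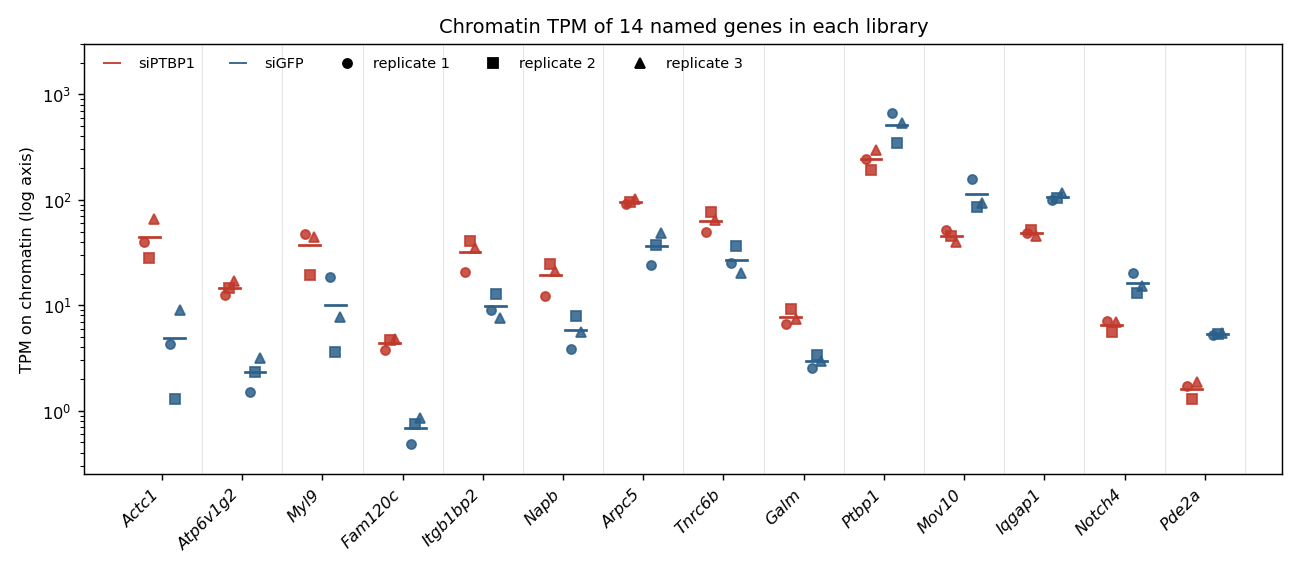
TPM on chromatin (log axis) of 14 genes in each siPTBP1 library (red, left) and siGFP library (blue, right), with a shape for each replicate number and a bar at each group mean. In the 9 genes from Actc1 to Galm all siPTBP1 points lie above all siGFP points, and in the 5 genes from Ptbp1 to Pde2a all lie below.

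Single genes of the proton pump and of vesicle fusion were also higher. Atp6v1g2, the brain form of a subunit of the vacuolar proton pump, had 12.4, 14.6 and 16.9 TPM in siPTBP1 replicates 1 to 3, against 1.49, 2.31 and 3.17 TPM in siGFP replicates 1 to 3. That is a log2 difference of 2.26 ± 0.17 (adjusted p = 7.12e-08 in limma), with no overlap and a call in each alternative fit. It was the one called member of 18 tested proton pump genes (median 0.18). The gene overlaps part of Nfkbil1 on the opposite strand, and Nfkbil1 differed by -0.17 (adjusted p = 0.676). Napb, beta-SNAP, which recycles the fusion machinery of synaptic vesicles, had 12.2, 24.8 and 20.9 TPM in siPTBP1 replicates 1 to 3, against 3.81, 7.91 and 5.63 TPM in siGFP replicates 1 to 3. Napb differed by 1.57 ± 0.15 (adjusted p = 8.6e-07) and likewise kept its call in each alternative fit, over the 6 compared libraries only at an adjusted p that rounds to 0.05.

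Among 24 tested synapse genes 2 were higher and 0 lower, beside 1.97% and 0.65% of all genes. The list median was 0.06 and turned to -0.05 under either rescaling. The 2 higher genes were Cnih3, an auxiliary subunit of AMPA receptors, and Snap25, a membrane fusion protein of synapses. Cnih3 had 2.61, 2.91 and 1.81 TPM in siPTBP1 cells, against 0.32, 0.51 and 0.53 TPM in siGFP cells (log2 difference 1.23 ± 0.19 (SE), adjusted p = 0.000785). Only its siPTBP1 libraries met the 1 TPM rule. Snap25 had 2.71, 10.3 and 5.69 TPM in siPTBP1 cells, against 1.54, 4.51 and 1.92 TPM in siGFP cells, a higher value in each pair although the groups overlapped (log2 difference 0.93 ± 0.18 (SE), adjusted p = 0.00534). Sez6, a membrane protein of neurons, had 4.01, 10.8 and 5.77 TPM in siPTBP1 cells, against 1.46, 2.74 and 0.71 TPM in siGFP cells (log2 difference 1.56 ± 0.25 (SE), adjusted p = 0.00112). All Sez6 values of siPTBP1 cells lay above those of siGFP cells, and the group ranges were wide. Of 8 neural progenitor genes 2 were higher. The transcription factor Sox11 had 20.7, 23.96 and 18.8 TPM in siPTBP1 cells, against 9.89, 14.4 and 12.01 TPM in siGFP cells, without overlap (log2 difference 0.77 ± 0.16 (SE), adjusted p = 0.011); its call was lost at adjusted p = 0.0656 without siPTBP1 replicate 1, 0.052 without siGFP replicate 2. The early neural factor Sox1 was called at low level (log2 difference 0.80 ± 0.21 (SE), adjusted p = 0.0365), and lost over the 9 libraries (adjusted p = 0.105) and at adjusted p = 0.12 without siPTBP1 replicate 2, 0.121 without siPTBP1 replicate 3, 0.16 without siGFP replicate 2, 0.172 without siGFP replicate 3. Of 24 splicing regulators of neurons and muscle, Rbfox3, the antigen of the neuronal marker NeuN, was higher (log2 difference 0.72 ± 0.16 (SE), adjusted p = 0.0171), with the call lost over the 9 libraries (adjusted p = 0.102) and at adjusted p = 0.07 without siPTBP1 replicate 1, 0.0648 without siPTBP1 replicate 2, 0.0835 without siGFP replicate 1, 0.0677 without siGFP replicate 2. Cdh2, N-cadherin, was the called member of 13 formative and primed epiblast genes, and had 16.97, 19.4 and 18.3 TPM in siPTBP1 cells, against 6.65, 9.83 and 11.7 TPM in siGFP cells (log2 difference 0.92 ± 0.21 (SE), adjusted p = 0.018). That call was lost at adjusted p = 0.104 without siPTBP1 replicate 1, 0.0741 without siGFP replicate 2, 0.0676 without siGFP replicate 3.

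The remaining large increases belonged to genes without a common list. Fam120c had 3.75, 4.70 and 4.82 TPM in siPTBP1 cells, against 0.48, 0.75 and 0.85 TPM in siGFP cells, with all siGFP libraries below 1 TPM (log2 difference 1.68 ± 0.14 (SE), adjusted p = 2.74e-07). Fam120c thus met the 1 TPM rule only through its siPTBP1 libraries, as did Vmn2r-ps16 below. The noncoding gene Gm43040, called lower, met it only through siGFP libraries. Itgb1bp2, melusin, a muscle protein that binds integrin, had 20.7, 40.6 and 34.8 TPM in siPTBP1 cells, against 9.06, 12.7 and 7.59 TPM in siGFP cells (log2 difference 1.59 ± 0.19 (SE), adjusted p = 3.77e-05). Clcn1, the chloride channel of skeletal muscle, had 15.1, 56.5 and 27.7 TPM in siPTBP1 cells, against 5.59, 16.9 and 5.04 TPM in siGFP cells, higher in each pair while replicate 2 was the highest of each group (log2 difference 1.74 ± 0.28 (SE), adjusted p = 0.00127). Lyrm7, an assembly factor of respiratory complex III, had 5.61, 14.3 and 8.32 TPM in siPTBP1 cells, against 1.37, 4.84 and 1.94 TPM in siGFP cells (log2 difference 1.51 ± 0.30 (SE), adjusted p = 0.00671). Ska1, which holds kinetochores to microtubules in mitosis, had 26.5, 72.1 and 53.7 TPM in siPTBP1 cells, against 10.8, 21.8 and 22.4 TPM in siGFP cells (log2 difference 1.38 ± 0.17 (SE), adjusted p = 6.12e-05). Tnrc6b, a partner of Argonaute in silencing by small RNAs, had 49.3, 76.2 and 63.8 TPM in siPTBP1 cells, against 25.03, 36.2 and 20.1 TPM in siGFP cells (log2 difference 1.21 ± 0.20 (SE), adjusted p = 0.0016). Each of these 6 genes was also called over the 9 chromatin libraries and in each fit that left out 1 library. Gpr21, an orphan receptor gene that lies inside Rabgap1 on the same strand, was called (log2 difference 1.61 ± 0.36 (SE), adjusted p = 0.0187) but not over the 9 libraries (adjusted p = 0.124) nor at adjusted p = 0.0989 without siPTBP1 replicate 2, 0.0627 without siPTBP1 replicate 3, 0.0708 without siGFP replicate 1, 0.102 without siGFP replicate 2, and the vomeronasal pseudogene Vmn2r-ps16, at 0 in 2 siGFP libraries, was likewise not called over the 9 libraries (adjusted p = 0.122) nor at adjusted p = 0.138 without siPTBP1 replicate 2, 0.0628 without siPTBP1 replicate 3, 0.121 without siGFP replicate 2, 0.111 without siGFP replicate 3.

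Lower genes included regulators of RNA and signalling. Mov10, an RNA helicase that represses retrotransposons and takes part in silencing, had 52.2, 45.2 and 39.8 TPM in siPTBP1 replicates 1 to 3, against 158, 85.6 and 93.7 TPM in siGFP replicates 1 to 3. No siPTBP1 library reached a siGFP library (log2 difference -1.23 ± 0.19 (SE), adjusted p = 0.000973). With Tnrc6b higher, Mov10 made 1 of the 2 calls among 20 silencing and RNA surveillance genes (median 0.09). Notch4, a Notch receptor of endothelium, had 7.08, 5.59 and 6.88 TPM in siPTBP1 replicates 1 to 3, against 20.3, 13.1 and 15.2 TPM in siGFP replicates 1 to 3 (log2 difference -1.18 ± 0.22 (SE), adjusted p = 0.00414). Pde2a, a phosphodiesterase of cyclic nucleotides, had 1.73, 1.28 and 1.86 TPM in siPTBP1 replicates 1 to 3, against 5.20, 5.38 and 5.40 TPM in siGFP replicates 1 to 3, the siGFP libraries being nearly equal (log2 difference -1.28 ± 0.22 (SE), adjusted p = 0.00253). Nearly all of its span overlaps Gm45837 on the same strand, so reads of the pair cannot be told apart with certainty. Icosl, a ligand of T-cell costimulation, had 27.9, 30.5 and 37.7 TPM in siPTBP1 cells, against 72.4, 57.02 and 117 TPM in siGFP cells (log2 difference -1.28 ± 0.25 (SE), adjusted p = 0.00528). The groups did not overlap, but the call was lost without the replicate 1 libraries (adjusted p = 0.0756) and at adjusted p = 0.0517 without siGFP replicate 3.

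Further lower genes had levels of a few TPM. Ltb, lymphotoxin beta, had 2.11, 1.71 and 1.10 TPM in siPTBP1 cells, against 8.73, 3.43 and 3.82 TPM in siGFP cells (log2 difference -1.18 ± 0.25 (SE), adjusted p = 0.0112), and its call was lost at adjusted p = 0.0708 without siGFP replicate 1, 0.0573 without siGFP replicate 3. Oasl2, an interferon-induced gene of the oligoadenylate synthetase family, had 2.97, 3.73 and 3.83 TPM in siPTBP1 cells, against 5.08, 10.3 and 9.58 TPM in siGFP cells (log2 difference -1.0 ± 0.20 (SE), adjusted p = 0.00738), with the call lost at adjusted p = 0.0546 without siPTBP1 replicate 2, 0.0682 without siGFP replicate 3. Oplah, 5-oxoprolinase of glutathione turnover, had 5.66, 6.31 and 4.43 TPM in siPTBP1 cells, against 11.1, 13.6 and 13.2 TPM in siGFP cells (log2 difference -1.08 ± 0.19 (SE), adjusted p = 0.0021). Dap, death-associated protein, had 1.42, 0.94 and 1.01 TPM in siPTBP1 cells, against 6.95, 2.47 and 1.90 TPM in siGFP cells (log2 difference -1.03 ± 0.19 (SE), adjusted p = 0.00444). Over the 9 chromatin libraries Oplah (adjusted p = 0.0585) and Dap (adjusted p = 0.0822) missed the threshold. Tnfsf13 and Krtdap were called with log2 differences of -1.21 and -1.13, and neither was called over the 9 libraries (adjusted p = 0.0716 and 0.0585). Without single libraries the adjusted p of Tnfsf13 was 0.0792 without siPTBP1 replicate 2, 0.0846 without siGFP replicate 2, 0.0697 without siGFP replicate 3, and that of Krtdap 0.117 without siPTBP1 replicate 1, 0.149 without siPTBP1 replicate 3, 0.196 without siGFP replicate 2, 0.133 without siGFP replicate 3.

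Most pluripotency genes had negative differences and few of them passed. Of 25 tested, 0 were higher and 3 lower, 22 lay below 0, and the median log2 difference was -0.22. Over all genes 1.97% were higher and 0.65% lower. Without the replicate 1 libraries 8 were lower and the median was -0.41. Dnmt3l, a cofactor of DNA methyltransferases in germ cells and stem cells, had 171, 54.9 and 105 TPM in siPTBP1 cells, against 285, 93.8 and 212 TPM in siGFP cells (log2 difference -0.83 ± 0.19 (SE), adjusted p = 0.0198). It was lower in each pair although the groups overlapped, and its call was lost at adjusted p = 0.0659 without siPTBP1 replicate 2, 0.0639 without siPTBP1 replicate 3, 0.117 without siGFP replicate 3. Fgf4, the autocrine growth factor of the epiblast, had 53.4, 30.3 and 42.6 TPM in siPTBP1 cells, against 67.9, 55.6 and 75.05 TPM in siGFP cells (log2 difference -0.67 ± 0.17 (SE), adjusted p = 0.0334), lost over the 9 libraries (adjusted p = 0.053) and at adjusted p = 0.147 without siPTBP1 replicate 2, 0.081 without siPTBP1 replicate 3, 0.0945 without siGFP replicate 2, 0.173 without siGFP replicate 3. Tcl1, a coactivator of AKT, differed by -0.64 (adjusted p = 0.0421), lost over the 9 libraries (adjusted p = 0.121) and at adjusted p = 0.0619 without siPTBP1 replicate 2, 0.21 without siPTBP1 replicate 3, 0.105 without siGFP replicate 2, 0.202 without siGFP replicate 3. The core factors Pou5f1 (-0.20, adjusted p = 0.713), Sox2 (-0.07, adjusted p = 0.912) and Nanog (-0.22, adjusted p = 0.756) did not pass. Over the 9 libraries 3 of the 25 genes were lower, Dnmt3l among them (adjusted p = 0.0242 in limma). The stem cell marker Zfp42 differed by -0.53 (adjusted p = 0.152, and 0.042 over the 9 libraries). Esrrb (-0.51), Klf4 (-0.40), Tdgf1 (-0.06) and Dppa5a (-0.22) passed in neither fit.

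Glycolysis genes had the lowest median among the lists with a call, -0.29, with 18 of 20 below 0. Only Pfkp, the platelet form of phosphofructokinase, was called. It had 188, 294 and 169 TPM in siPTBP1 cells, against 239, 441 and 289 TPM in siGFP cells (log2 difference -0.56 ± 0.15 (SE), adjusted p = 0.0458), and the call was lost without any 1 of 5 libraries (adjusted p = 0.0917 without siPTBP1 replicate 1, 0.0803 without siPTBP1 replicate 2, 0.144 without siPTBP1 replicate 3, 0.159 without siGFP replicate 2, 0.202 without siGFP replicate 3). Of 12 interferon response genes, with a median of -0.22, 3 were lower and 0 higher, beside 0.65% and 1.97% of all genes. They were Ifi35 (-0.77, adjusted p = 0.0227), the ubiquitin-like modifier Isg15 (-0.95, adjusted p = 0.03) and the synthetase Oas1a (-0.63, adjusted p = 0.0331). None of the 3 was called over the 9 chromatin libraries (adjusted p = 0.0579, 0.124 and 0.202). Without single libraries Ifi35 had adjusted p = 0.112 without siPTBP1 replicate 1, 0.139 without siGFP replicate 3, Isg15 0.13 without siPTBP1 replicate 2, 0.131 without siPTBP1 replicate 3, 0.087 without siGFP replicate 1, 0.0509 without siGFP replicate 2, 0.13 without siGFP replicate 3, and Oas1a 0.0931 without siPTBP1 replicate 1, 0.169 without siPTBP1 replicate 2, 0.124 without siGFP replicate 2, 0.11 without siGFP replicate 3.

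**Figure D3:**
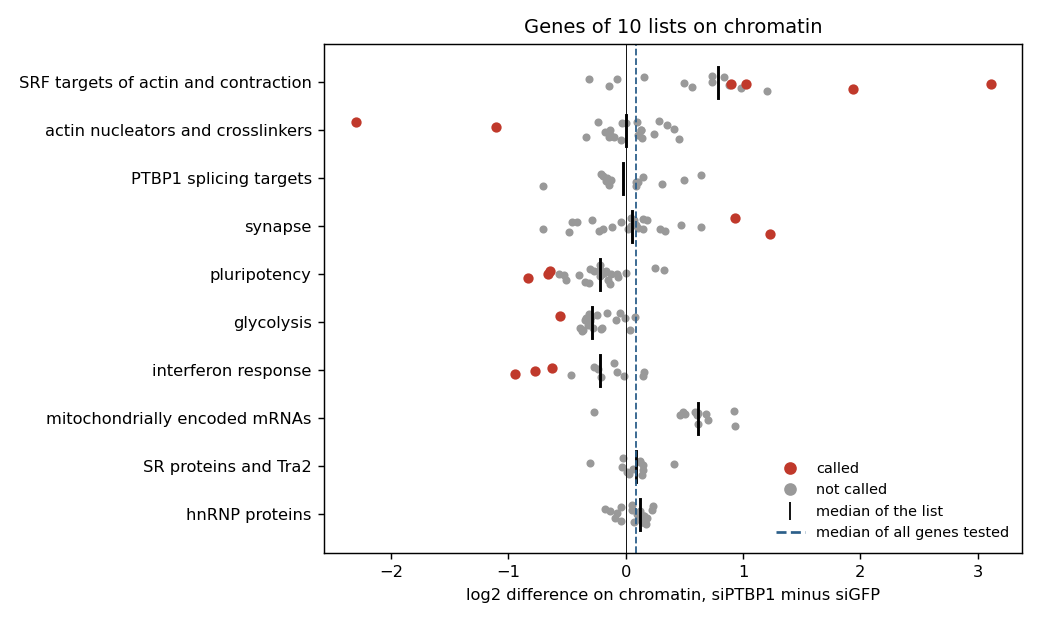
Log2 difference on chromatin, siPTBP1 minus siGFP, of each tested gene in selected lists. Red points were called, grey points were not, black bars are list medians and the dashed line is the median of all genes (0.09). The SRF targets lie mostly to the right (median 0.79), and the pluripotency, glycolysis and interferon genes mostly to the left of that line (-0.22, -0.29 and -0.22).

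Long noncoding genes were called at shares near the background. Of 2664 tested, 62 (2.33%) were higher and 12 (0.45%) lower, against 1.97% and 0.65% of all genes. The largest increase was in AC108401.2, a noncoding RNA of 2 exons and 346 bases that GENCODE M21 names Gm47765. It had 16.6, 22.5 and 34.99 TPM in siPTBP1 replicates 1 to 3, against 4.78, 1.44 and 4.44 TPM in siGFP replicates 1 to 3. All siPTBP1 libraries exceeded all siGFP libraries (log2 difference 2.53 ± 0.27 (SE), adjusted p = 1.21e-05 in limma, 0.0242 over the 9 libraries). The gene lies at chr12:80190160-80191428 on the minus strand inside Actn1, alpha-actinin 1, on the same strand and overlaps 0 of its exons. Actn1 RNA that still holds the intron there covers the same bases. Its reads and those of AC108401.2 therefore cannot be told apart with certainty. Actn1, a known PTBP1 splicing target, did not pass: it had 204, 192 and 231 TPM in siPTBP1 cells, against 176, 198 and 211 TPM in siGFP cells (log2 difference 0.10 ± 0.22 (SE), adjusted p = 0.883). Because PTBP1 binds stretches of pyrimidines, the first exon is shown from GENCODE M21 (GRCm38), chr12:80191286-80191428, minus strand, 5′ to 3′, with each TTCTCT, a sequence to which PTBP1 is known to bind as UUCUCU, in capitals.
AC108401.2: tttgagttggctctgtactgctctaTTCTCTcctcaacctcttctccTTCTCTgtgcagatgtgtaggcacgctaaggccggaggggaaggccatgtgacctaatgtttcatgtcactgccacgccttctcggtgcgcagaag
The first 60 of its 143 bases held 2 such matches and were 73.3% pyrimidine. Of 141515 transcripts in the annotation, 3.04% had at least 1 match and 0.0834% had 2 or more in their first 60 bases, and 6.67% had the motif or its reverse complement AGAGAA. Those starts are of spliced transcripts, whereas this exon lies within an intron of Actn1 and its gene was picked for its increase. The shares are therefore no background for intron sequence. The match describes letters, and binding was not measured.

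Further noncoding genes were called in both directions. The RNA 0610040B10Rik had 5.65, 11.7 and 5.33 TPM in siPTBP1 cells, against 1.67, 2.08 and 0.95 TPM in siGFP cells (log2 difference 1.69 ± 0.21 (SE), adjusted p = 9.32e-05). Gm27003 had 2.36, 3.52 and 4.92 TPM in siPTBP1 cells, against 0.27, 1.07 and 0.27 TPM in siGFP cells (log2 difference 1.58 ± 0.22 (SE), adjusted p = 0.000352). AC124581.4 fell, with 25.02, 28.5 and 47.3 TPM in siPTBP1 cells, against 66.6, 53.8 and 118 TPM in siGFP cells (log2 difference -1.19 ± 0.24 (SE), adjusted p = 0.0077, but 0.0648 without siGFP replicate 3). AC154576.2 and Gm43040 were called lower (-1.13 and -0.91) but not over the 9 libraries (adjusted p = 0.184 and 0.135), and leaving out single libraries gave adjusted p = 0.0582 without siPTBP1 replicate 1, 0.21 without siPTBP1 replicate 3, 0.055 without siGFP replicate 1, 0.232 without siGFP replicate 3 for AC154576.2 and 0.0876 without siPTBP1 replicate 3, 0.0523 without siGFP replicate 1 for Gm43040. Of 47 replication-dependent histone genes, most of whose mRNAs lack a polyA tail, 6 were higher and 0 lower, with a median of 0.14. Hist1h1c, a linker histone, had 18.2, 10.7 and 17.5 TPM in siPTBP1 cells, against 11.02, 3.12 and 6.18 TPM in siGFP cells (log2 difference 1.18 ± 0.16 (SE), adjusted p = 0.000184) and was the one histone called over the 9 libraries. Hist1h2be, Hist1h2bm and Hist1h2bp were each under 7 TPM, and their adjusted p over the 9 libraries was 0.123, 0.0565 and 0.1. Their near-identical copies can share reads. Of 372 genes named Zfp, for zinc finger protein, 7 were higher (1.88%) and 2 lower (0.538%), with a median of 0.09, shares and a median near those of all genes (1.97%, 0.65% and 0.09). Zfp286 had 13.7, 24.04 and 24.6 TPM in siPTBP1 cells, against 6.72, 11.8 and 12.6 TPM in siGFP cells (log2 difference 0.94 ± 0.17 (SE), adjusted p = 0.00288) and Zfp334 had 6.36, 7.64 and 6.79 TPM in siPTBP1 cells, against 2.93, 3.49 and 3.75 TPM in siGFP cells (log2 difference 0.85 ± 0.16 (SE), adjusted p = 0.00395). Zfp691 had 17.9, 18.8 and 24.2 TPM in siPTBP1 cells, against 7.57, 9.62 and 8.41 TPM in siGFP cells (log2 difference 1.15 ± 0.24 (SE), adjusted p = 0.00888, but 0.0587 without siPTBP1 replicate 3).

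Some genes were listed at 0 throughout a group. Of the 18312 genes tested, 15 were at 0 in all siGFP libraries and at 1 TPM or more in all siPTBP1 libraries. Of these 15, 11 had transcripts under 200 bases. The reverse held for 10 genes, of which 7 were under 200 bases. Each such gene met the rule of 1 TPM in 3 of 6 libraries only through the group where it was present. Trav12d-3, a T-cell receptor segment with near-identical copies, was listed at 0 in each siGFP library and had 4.03, 3.75 and 8.82 TPM in siPTBP1 replicates 1 to 3. One of 2 overlapping IDs of the small nucleolar RNA Rnu3a was listed at 0 in each siPTBP1 library and had 30.3, 5.02 and 1.30 TPM in siGFP replicates 1 to 3, while the other averaged 3.54 TPM in siPTBP1 cells and was listed at 0 in siGFP cells. The 2 IDs share bases, so the assignment of reads between them is uncertain and no fold is given.

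The PTBP1 splicing targets did not pass the test on chromatin in the 27-library fit. Of 14 tested, limma called 0, Sv2a was higher and Gabbr1 lower at an unadjusted p under 0.05, 0 were called over the 9 libraries, and the median was -0.02, or 0.09 without the replicate 1 libraries. With the replicate block set within each fraction, Gabbr1 was called lower (adjusted p = 0.0166) and Sv2a higher (adjusted p = 0.0398), and Gabbr1 was also called without siGFP replicate 1 (adjusted p = 0.0281). In CY 6 of the same genes were higher and 1 lower, with a median of 0.52. Vamp2, a vesicle membrane protein of synapses, shows the contrast: on chromatin it had 61.5, 96.7 and 84.01 TPM in siPTBP1 replicates 1 to 3, against 57.6, 89.2 and 71.4 TPM in siGFP replicates 1 to 3. The groups overlapped, and the log2 difference was 0.15 ± 0.18 (adjusted p = 0.773), whereas in CY it was 1.62 (adjusted p = 7.98e-06). The test of the difference itself, chromatin minus CY, passed (log2 -1.47 ± 0.25, adjusted p = 0.00637), but not without the replicate block (adjusted p = 0.215). Gabbr1, a subunit of the GABA-B receptor, had 92.8, 133 and 114 TPM in siPTBP1 cells, against 129, 253 and 187 TPM in siGFP cells, lower in each pair, but did not pass on chromatin (log2 difference -0.70 ± 0.20 (SE), adjusted p = 0.0639). Its effect differed from that in CY (-1.62 ± 0.28, adjusted p = 0.00891) and in NP (-1.41 ± 0.28, adjusted p = 0.0372). Kif5a, a neuronal kinesin, differed by 0.31 on chromatin (adjusted p = 0.368), and Sv2a, a synaptic vesicle protein, by 0.64 (adjusted p = 0.0723), and their effects were not called different from those in CY. Of the other targets, Dlg4, Tpm1, Pkm and Src differed by -0.19, 0.49, -0.16 and -0.13 on chromatin. Spliced and unspliced RNA are summed in these values, and neither exon inclusion nor intron retention was analysed here.

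Across all genes the chromatin effect differed from the CY effect for 28 genes in the upward and 11 in the downward direction (0.153% and 0.0601%, 0.213% in all), and from the NP effect for 24 and 6 (0.131% and 0.0328%, 0.164% in all). These counts fell to 5 and 3 for CY and 6 and 2 for NP without the replicate block, and without siGFP replicate 3 the NP counts were 8 and 0. Atat1, the alpha-tubulin acetyltransferase, had 37.8, 54.7 and 43.5 TPM in siPTBP1 cells, against 44.01, 64.4 and 42.6 TPM in siGFP cells on chromatin, and its effect there was lower than in CY (-1.81 ± 0.24, adjusted p = 0.000659). Acta2 (-3.03 ± 0.58, adjusted p = 0.0308) and Tagln, transgelin of smooth muscle (-2.45 ± 0.49, adjusted p = 0.0327), likewise had effects below those in CY, where they differed by 3.86 and 2.60. Leaving out single libraries took the adjusted p of that difference up to 0.109 for Acta2 and 0.12 for Tagln. The formin Fmnl3 went the other way: it had 30.5, 46.6 and 35.98 TPM in siPTBP1 cells, against 45.5, 43.2 and 34.1 TPM in siGFP cells on chromatin, fell by 2.09 on the log2 scale in CY (adjusted p = 6.59e-08), and the difference was 1.97 ± 0.23, adjusted p = 9.72e-05.

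**Figure D4:**
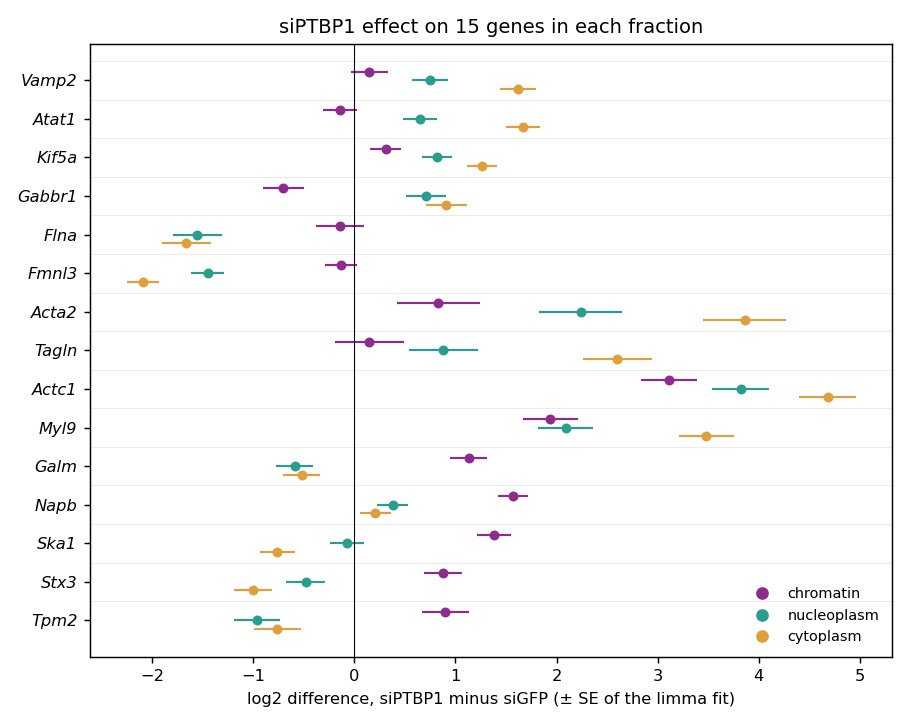
Log2 difference of siPTBP1 minus siGFP (x axis) of 15 genes in chromatin (purple), nucleoplasm (green) and cytoplasm (yellow), with bars of 1 SE of the limma fit. Vamp2 and Atat1 lie near 0 on chromatin and above 1.4 in the cytoplasm, while Galm, Napb and Ska1 lie above 1 on chromatin and below 0.5 in the cytoplasm.

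Of the genes called on chromatin, 17 also passed the test of a difference from CY, 13 that from NP, and 11 both. Of those 11, 7 have a named symbol and a transcript of at least 200 bases, and all 7 were higher on chromatin. They are Trav12d-3, given above, Ska1, Galm, Napb, Tpm2, Stx3 and Aldh9a1. Trav12d-3 was listed at 0 in every CY library and met the 1 TPM rule only through siPTBP1 libraries, so its passing of these tests is no support. Ska1 differed by 1.38 on chromatin and by -0.76 in CY (adjusted p = 0.0149), and the difference was 2.14 ± 0.24, adjusted p = 7.28e-05 against CY and 1.45 ± 0.24, adjusted p = 0.00904 against NP. Galm, galactose mutarotase, had 6.58, 9.22 and 7.37 TPM in siPTBP1 cells, against 2.57, 3.41 and 2.95 TPM in siGFP cells (log2 difference 1.13 ± 0.18 (SE), adjusted p = 0.00127), and the difference was 1.65 ± 0.26, adjusted p = 0.00299 against CY and 1.72 ± 0.26, adjusted p = 0.00383 against NP. Napb had differences of 1.36 ± 0.21, adjusted p = 0.00208 against CY and 1.19 ± 0.21, adjusted p = 0.0137 against NP. Stx3, a syntaxin of apical and synaptic membranes, had 78.5, 161 and 138 TPM in siPTBP1 cells, against 53.5, 82.6 and 62.2 TPM in siGFP cells (log2 difference 0.88 ± 0.19 (SE), adjusted p = 0.0141, but 0.0619 without siPTBP1 replicate 2, 0.0581 without siPTBP1 replicate 3, 0.0949 without siGFP replicate 3), and differed by -1.0 in CY (adjusted p = 0.00506), so that the effects had opposite signs (difference 1.88 ± 0.27, adjusted p = 0.00143). Aldh9a1, an aldehyde dehydrogenase of carnitine synthesis, had 130.1, 199.99 and 137 TPM in siPTBP1 cells, against 77.7, 111 and 84.1 TPM in siGFP cells, with differences of 1.46 ± 0.27, adjusted p = 0.0131 against CY and 1.34 ± 0.27, adjusted p = 0.0372 against NP. On chromatin the call of Aldh9a1 (adjusted p = 0.0303) was lost without any 1 of the 6 libraries (0.0564 to 0.126). Tpm2 differed by 1.66 ± 0.33, adjusted p = 0.0244 against CY and 1.86 ± 0.33, adjusted p = 0.0137 against NP. Fam120c exceeded its CY effect (1.18 ± 0.20, adjusted p = 0.00637) but not its NP effect by the test (0.82 ± 0.20, adjusted p = 0.142). AC108401.2 exceeded its CY effect (2.19 ± 0.39, adjusted p = 0.00891). In CY AC108401.2 averaged 0.437 TPM in siPTBP1 cells and 0.1 TPM in siGFP cells, and Fam120c averaged 0.85 and 0.29 TPM. At such levels log2(TPM + 1) understates a change, so part of both differences can come from the pseudocount, and how much was not tested. When 1 chromatin library was left out, the adjusted p reached 0.106 for the Tpm2 difference from CY, 0.0633 for those of Tpm2 and Napb from NP, 0.126 for that of Gabbr1 from NP, 0.16 for that of Stx3 from NP, and 0.0516 and 0.122 for those of Aldh9a1 from CY and NP. Without the replicate 1 libraries the Gabbr1 differences had adjusted p = 0.0711 and 0.116, and that of Napb from NP 0.0588. Without the block, the CY difference had adjusted p = 0.589 for Ska1, 0.102 for Galm, 1.0 for Napb, 0.766 for Stx3, 0.207 for Tpm2 and 0.509 for Fam120c.

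Many of the called genes had little RNA in CY. Of the 360 higher genes 45.8% averaged under 1 TPM in CY, as did 42.9% of the 119 lower genes and 31.0% of all genes tested. Of the 360, 64 were also called higher in CY and 59 in NP, where 1.49% and 1.25% of all genes were higher, while Ska1 and Stx3 were called lower in CY and Tpm2 in NP. Of the 119, 29 were also called lower in CY and 33 in NP, where 0.562% and 0.754% were lower. Both directions together came to 2.05% of genes in CY and 2.0% in NP. The 27-library fit assumes the same spread in each fraction. With replicate effects removed within each fraction, a finer block than that fit used, the median residual SD of all genes was 0.183 in chromatin, 0.188 in CY and 0.136 in NP libraries. In the same order, this SD was 0.187, 0.168 and 0.158 for the higher genes and 0.216, 0.161 and 0.154 for the lower genes. The median chromatin spread of the called genes was thus above that in CY and NP.

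The remaining lists held few calls or none. Rpn2, a subunit of the oligosaccharyltransferase, was the one called member of 24 endoplasmic reticulum chaperones and matrix proteins (list median 0.27). It had 291, 285 and 271 TPM in siPTBP1 cells, against 231, 162 and 154 TPM in siGFP cells (log2 difference 0.65 ± 0.14 (SE), adjusted p = 0.0127), and was not called over the 9 libraries (adjusted p = 0.0579) nor at adjusted p = 0.0628 without siPTBP1 replicate 3, 0.0752 without siGFP replicate 2, 0.0682 without siGFP replicate 3. In 19 lists with 344 genes in all, the PTBP1 targets included, limma called 0 genes. Of the 344, 12 were higher and 10 lower at an unadjusted p under 0.05, beside 1941 and 709 of all 18312 genes. These shares were smaller in the lists than over all genes in both directions. Over the 9 chromatin libraries Ctgf, a YAP target, was higher (0.83, adjusted p = 0.0466) and the keratin Krt18 lower (-0.84, adjusted p = 0.0371). Besides the PTBP1 targets these were YAP targets, immediate early genes, neuronal cytoskeleton, SR proteins, hnRNP proteins, genes with detained introns, primitive endoderm, primitive streak, trophoblast, fibroblast, two-cell-stage-like genes, p53 targets, ATF4 targets, cholesterol synthesis, nuclear long noncoding RNAs, snoRNA hosts, mitochondrially encoded mRNAs and ribosomal proteins. The 12 mitochondrially encoded mRNAs had a median of 0.61, which was 0.17 without the replicate 1 libraries, and the 88 ribosomal protein genes had a median of 0.09, beside 0.09 for all genes.

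The double knockdown libraries were compared with the same siGFP libraries, so their values are set side by side only. That contrast called 1.77% of genes higher and 0.546% lower, 2.32% in all. Actc1 differed by 3.11 in siPTBP1 cells and by 2.99 in the double knockdown, Atp6v1g2 by 2.26 and 2.27, Napb by 1.57 and 1.66, and Mov10 by -1.23 and -1.0, in the same order. Other genes called in siPTBP1 cells were not called by limma in the double knockdown. Among them were Notch4 (-1.18 and -0.77, adjusted p = 0.0726 in the double knockdown), Oplah (-1.08 and -0.62, 0.0849) and Oasl2 (-1.0 and -0.61, 0.136). Cdh2 (0.92 and 0.57, 0.191) and Gm43040 (-0.91 and -0.12, 0.883) were not called there either.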

How the data were processed

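The deposited table gives TPM per gene, made by the authors from stranded polyA+ libraries. Per the submitters' processing notes STAR, kallisto and mm10 were used; versions, annotation release and counting by strand are not given in the sources used here. Of the IDs, 53274 matched GENCODE M21 (GRCm38), which gave positions and gene types; 26 symbols turned into dates were restored, and 101 IDs shared a symbol. TPM at 0 can be a failed estimate.

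Values were fitted as log2(TPM + 1), which understates changes of low genes, by limma (version 3.58.1, R 4.3.3) with two-sided moderated tests whose prior variance followed the mean level and was robust to outliers. The fit had 9 group means, the replicate number as a block and 16 residual degrees of freedom. P-values were adjusted by Benjamini-Hochberg over the 18312 genes, and a gene was called under 0.05. The labels share replicate numbers without saying what a number stands for. Whether these pair the libraries was checked from deviations from group means: over the 108 same-numbered pairs the correlation was 0.168 at the lowest, and all 27 libraries correlated best with their own number. The pairing therefore comes from the data. The main fit was also run on simulated data. These were made with the same spread in each fraction and a shared replicate effect, so that run cannot check either assumption.

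The members, the 35 gene lists and the tests were chosen with earlier results of these data known. Genes were named by a rule: the 15 largest called differences each way that moved alike in all 3 pairs, with transcripts of at least 200 bases and no predicted or clone symbol; the 3 largest called noncoding genes each way; the PTB family and PTBP1 targets; up to 4 called members of each other list; and the 5 largest differences of effect each way against CY and NP. Genes outside it are said to be so, except list members and markers given for context. Values of a few such genes are left out. Alternatives changed the block, libraries, pseudocount, filter, scaling and eBayes settings. Promoters came from RefSeq; a protein table was not used here. Python 3.11.15 was used for the rest.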

Additional observations from a re-analysis of the deposited data

Results flagged for a closer look

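The results below drew attention because the effect of siPTBP1 on chromatin differed from its effect in another fraction, tested by limma as the difference of the 2 contrasts. Values are log2 differences, chromatin minus the other fraction. There are 29 such results among the named genes. Of these, 21 kept their call without the replicate 1 libraries, 15 in each fit that left out 1 chromatin library, and 3 without the replicate block (both of Trav12d-3, and that of Fmnl3 against CY), and 0 reversed in any setting. Trav12d-3 was listed at 0 in each siGFP chromatin library and in every CY library, and met the 1 TPM rule only through siPTBP1 libraries. Its values depend on the pseudocount, and both of its results are therefore no support. The differences of AC108401.2, Gm27003 and Fam120c from CY also depend on the pseudocount, since their group means in CY were under 1 TPM.

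Effects on chromatin above those in CY were 2.62 for Trav12d-3, 2.14 for Ska1, 2.19 for AC108401.2, 1.97 for Fmnl3, 1.90 for Dhtkd1, 1.88 for Stx3, 1.66 for Tpm2, 1.65 for Galm, 1.49 for Gm27003, 1.36 for Napb and 1.18 for Fam120c. Dhtkd1, a mitochondrial 2-oxoadipate dehydrogenase subunit, had 25.1, 45.3 and 40.7 TPM in siPTBP1 cells, against 19.7, 36.1 and 22.9 TPM in siGFP cells on chromatin and differed there by 0.49 (adjusted p = 0.207), against -1.42 in CY (adjusted p = 7.81e-05). For Gm27003 the adjusted p was up to 0.162 when 1 library was left out.

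Effects on chromatin below those in CY were -3.03 for Acta2, -2.45 for Tagln, -2.40 for Ttpa, -1.81 for Atat1, -1.62 for Gabbr1 and -1.47 for Vamp2. Ttpa, the tocopherol transfer protein, had 5.31, 5.73 and 6.42 TPM in siPTBP1 cells, against 4.92, 15.2 and 17.9 TPM in siGFP cells on chromatin, so replicate 1 went against the other pairs (log2 difference -0.84 ± 0.32 (SE), adjusted p = 0.207). Without the replicate block the adjusted p was 0.00682 for Fmnl3 against CY.

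Effects on chromatin above those in NP were 2.30 for Trav12d-3, 1.86 for Tpm2, 1.72 for Galm, 1.56 for Cald1, 1.45 for Ska1, 1.36 for Stx3, 1.33 for Fmnl3 and 1.19 for Napb. Cald1, caldesmon, an actin and tropomyosin binding protein, differed by -0.07 on chromatin (adjusted p = 0.924) and by -1.63 in NP (adjusted p = 0.000189); its difference of effect was called in 0 of the 6 fits that left out a library, with adjusted p between 0.0592 and 0.125. Effects below those in NP were -1.46 for Slc22a17, -1.41 for Gabbr1, -1.29 for Gpc2 and -1.26 for Gabre. Slc22a17, a lipocalin receptor, Gpc2, a glypican of developing neurons, and Gabre, a subunit of GABA-A receptors, differed by 0.19, 0.49 and 0.12 on chromatin and by 1.65, 1.77 and 1.38 in NP.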

How the results depend on the processing

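The counts of calls moved with the choice of libraries and of block. With no replicate block 55 genes were higher and 26 lower on chromatin, 5 and 3 differed from the CY effect and 6 and 2 from the NP effect; with the replicate block set within each fraction these were 901 and 328, 103 and 70, and 116 and 70. The 9 chromatin libraries alone gave 184 and 53, and the 6 compared libraries, with 2 residual degrees of freedom, 15 and 8. A pseudocount of 0.1 gave 150 and 50, with 17 lower against CY and 13 higher against NP. No filter on TPM gave 680 and 310, 66 and 19 against CY and 62 and 13 against NP, and a filter of 5 TPM gave 156 and 55. Median-ratio scaling gave 177 higher on chromatin, 64 and 27 against CY and 10 lower against NP; quantile normalization gave 274 lower on chromatin, 47 and 20 against CY and 12 lower against NP. Without the replicate 1 libraries 196 were lower on chromatin, 85 and 27 differed from CY and 64 and 13 from NP. Leaving out 1 chromatin library gave 192 to 368 higher and 66 to 122 lower, 21 to 38 and 12 to 15 against CY, and 8 to 31 and 0 to 9 against NP.

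Of 61 named genes called on chromatin, 20 kept the call with no replicate block, 39 over the 9 libraries and 3 over the 6 libraries. The call was kept by 50 without the replicate 1 libraries and by 37 to 51 without 1 library. None reversed, but the largest differences were named only where all 3 pairs moved alike. Reversal was thus unlikely beforehand, and its absence is no evidence of stability. Reversals came in named genes that were not called. Actn1 turned to -0.02 under median-ratio scaling. Without the replicate 1 libraries Flna turned to 0.33, Pkm to 0.02, Src to 0.11, Fmnl3 to 0.09 and Cald1 to 0.00. Leaving out 1 library gave -0.42 to 0.15 for Flna (0.10 without siGFP replicate 1), -0.32 to 0.02 for Src, -0.25 to 0.07 for Fmnl3, -0.19 to 0.58 for Tagln (-0.04 without siPTBP1 replicate 1), -0.19 to 0.00 for Cald1 and -0.52 to 0.03 for Ptbp3. The causes were not tested. Low genes are limited by an unknown depth, since TPM holds no read numbers.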
